A study of Mus musculus with 16 samples.

Results

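The forkhead family genes outside the FOXO class are described here in 38 mouse genes, from Foxa1 to Foxs1, which were taken by name from the GENCODE M21 annotation (mouse genome build mm10). They are 38 of 21851 protein-coding genes. Each gene was given a status in each of 6 lists of ChIP-seq peaks (regions of the genome enriched in DNA bound to a given histone mark). A promoter counted as marked when a listed peak overlapped by at least 1 bp the window reaching 1 kb to either side of a protein-coding start site. The gene body was examined in the same way.

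HSCs (hematopoietic stem cells, which reside in bone marrow and give rise to every blood lineage) were taken from C57BL/6 mice that were either young (10 weeks old) or aged (20 months old). They had been sorted by surface markers: negative for lineage markers, CD34, CD48, Flt3 and the marker written IL-7 in the labels, and positive for Sca-1, c-kit and CD150. Each of 3 histone marks was measured in 2 libraries per age, with 2 input libraries per age, which makes 16 libraries in 8 groups. The peaks came as 1 pooled list per mark and age, so the spread between the 2 libraries is not known, no difference between the ages was tested and no p-value is given. The number of mice behind a library is not given in the sources used here.

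Forkhead proteins are transcription factors that share a winged-helix DNA-binding domain. Most genes of the family act in the embryo, where single members direct the formation of gut, kidney, eye, ear, vessels or neural crest, and most of those have no known use in blood stem cells. A smaller set is expressed in nearly every cell type. In cells that do not use them, developmental genes of this kind are typical targets of the Polycomb complexes: Polycomb repressive complex 2 methylates histone H3 (H3K27me3), and Polycomb repressive complex 1 ubiquitinates histone H2A (H2AK119ub1). H3K4me3 is the mark of active and poised promoters, and promoters that carry both H3K4me3 and H3K27me3 are termed bivalent. Polycomb complexes of mammals are known to gather at CpG islands, stretches that are dense in the dinucleotide CpG.

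Sequences are shown first for the places in and beside the members on which the results turn, with every CpG in capitals, read 5′ to 3′ on the strand of the gene, from mm10. The first is a stretch of 200 bases from the middle of a gap, the uncovered DNA between neighbouring H3K27me3 regions of the young list. The gap, 274 bp wide and coding throughout, was that of highest CpG density among those free of untranslated sequence, and it was picked after the gaps had been seen.
Foxl2, gap, chr9:98956451-98956650, plus strand: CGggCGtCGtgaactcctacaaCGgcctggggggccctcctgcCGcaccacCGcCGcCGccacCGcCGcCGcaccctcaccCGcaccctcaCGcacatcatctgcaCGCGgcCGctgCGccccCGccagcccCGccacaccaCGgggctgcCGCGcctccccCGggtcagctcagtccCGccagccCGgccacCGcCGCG
This stretch holds 28 CpGs. The others show, for each list, 200 bases around the summit of the member H3K4me3 peak of lowest q, or at the centre of the widest member region of a broad mark, passing over windows that held untranslated sequence.
Foxj1, young H3K4me3 summit, chr11:116335592-116335791, minus strand: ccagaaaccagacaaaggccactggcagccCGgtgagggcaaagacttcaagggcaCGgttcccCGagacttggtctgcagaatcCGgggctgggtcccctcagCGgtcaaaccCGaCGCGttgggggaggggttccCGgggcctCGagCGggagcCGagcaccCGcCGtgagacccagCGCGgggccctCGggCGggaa
Foxb2, aged H3K4me3 summit, chr19:16874030-16874229, minus strand: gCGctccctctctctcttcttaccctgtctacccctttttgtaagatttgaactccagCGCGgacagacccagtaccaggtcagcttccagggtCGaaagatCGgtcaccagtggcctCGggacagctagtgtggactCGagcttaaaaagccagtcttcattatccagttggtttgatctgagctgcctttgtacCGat
Foxa2, young H3K27me3 centre, chr2:148033633-148033832, minus strand: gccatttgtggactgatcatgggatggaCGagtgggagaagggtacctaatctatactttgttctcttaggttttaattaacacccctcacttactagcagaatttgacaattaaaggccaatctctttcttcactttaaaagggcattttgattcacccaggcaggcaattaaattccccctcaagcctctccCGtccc
Foxl2, aged H3K27me3 centre, chr9:98958775-98958974, plus strand: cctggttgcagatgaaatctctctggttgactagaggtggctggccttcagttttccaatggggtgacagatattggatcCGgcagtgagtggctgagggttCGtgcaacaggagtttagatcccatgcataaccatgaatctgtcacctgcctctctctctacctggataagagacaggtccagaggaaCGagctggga
Foxn1, young H2AK119ub1 centre, chr11:78372188-78372387, minus strand: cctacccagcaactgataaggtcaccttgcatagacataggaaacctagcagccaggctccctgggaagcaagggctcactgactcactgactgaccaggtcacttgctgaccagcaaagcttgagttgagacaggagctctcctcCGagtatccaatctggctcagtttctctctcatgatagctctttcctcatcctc
Foxb2, aged H2AK119ub1 centre, chr19:16875799-16875998, minus strand: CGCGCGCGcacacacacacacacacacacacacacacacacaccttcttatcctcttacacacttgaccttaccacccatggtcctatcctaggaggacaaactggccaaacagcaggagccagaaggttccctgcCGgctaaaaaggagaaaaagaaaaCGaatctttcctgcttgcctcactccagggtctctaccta
The H3K4me3 summit at Foxj1 holds 18 CpGs and that at Foxb2 holds 8. The centres of the 4 broad regions hold between 1 and 6.

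The label of the cells was checked with H3K4me3 at 12 HSC marker genes, of which 9 were marked in each list: Gata2 in the young list only, Kit in the aged list only, 8 in both, and Ly6a and Slamf1 in neither. H3K4me3 was listed at 0 of 4 T cell, 0 of 4 granulocyte and macrophage and 0 of 4 non-blood markers at both ages and at 1 of 4 B cell markers (Ebf1) at both ages. The lists differ in length, which bears on every count: 11371 young and 6723 aged peaks of H3K4me3, 63142 and 20419 of H3K27me3, and 2593 and 17768 of H2AK119ub1. Counts are therefore also given with the longer list of each mark cut by q to the length of the shorter. The reads under the summit could be recovered for H3K4me3, with a median of 20 in the young list and 19 in the aged list. A gene without a peak is a gene at which the mark did not pass the caller's threshold at this depth, not a gene shown to lack it.

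H3K27me3 was the most frequent mark of the members in young HSCs. There 21 of 38 members (55.3%) carried it at the promoter, compared with 16.0% of all protein-coding genes, and in aged HSCs 14 of 38 (36.8%), compared with 8.24%. All 14 aged members were among the 21 young ones, so that 36.8% of the members and 7.83% of all genes were marked at both ages. With the gene body included, 23 members were marked in the young list (all genes 22.2%) and 17 in the aged list (all genes 13.3%). With both lists cut to 20419 regions, the promoter counts were 19 young and 14 aged, beside 11.2% and 8.24% of all genes.

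**Figure D1:**
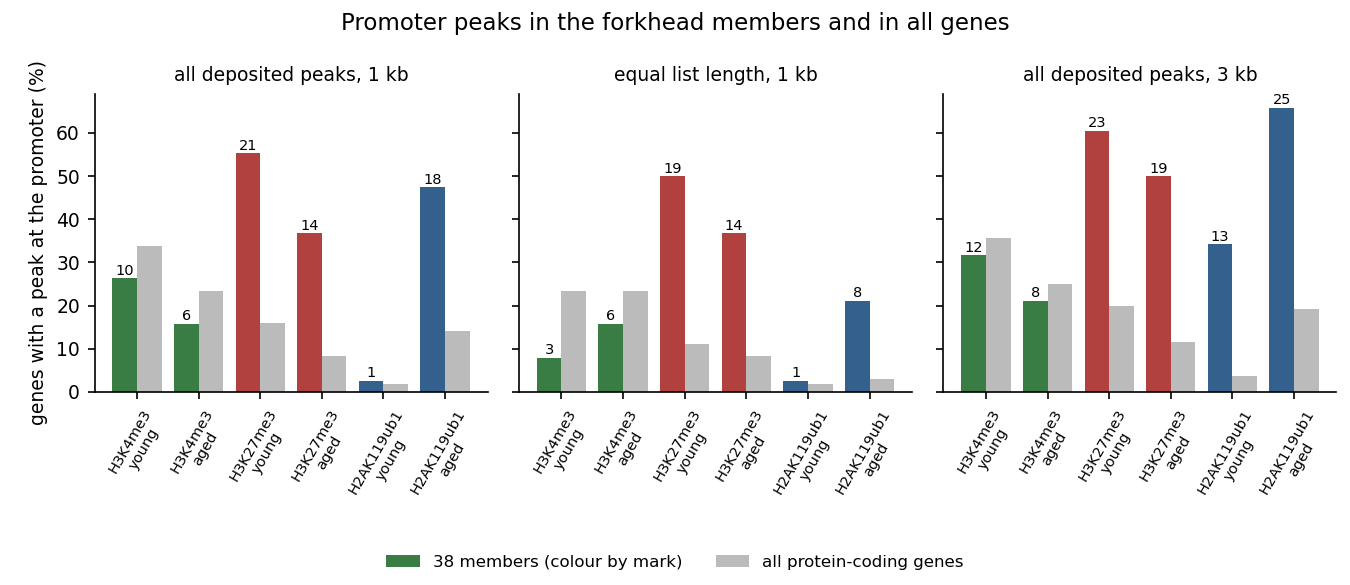
Percentage of genes with a peak at the promoter (vertical axis) in each of the 6 lists, for the 38 forkhead members (coloured bars, with the number of members above) and all protein-coding genes (grey bars), with all deposited peaks and a 1 kb window (left), lists of equal length (middle) and a 3 kb window (right). The members stand above all genes for H3K27me3 in all 3 panels, and below all genes for H3K4me3.

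The H3K27me3 domains at the members were wide. A region at a member measured 2514 bp in the median in the young list, against 397 bp over the whole list, and 619 bp in the aged list, against 363 bp. The widest young region, 24314 bp at chr2:148021576-148045889, covered Foxa2, a pioneer factor of the endoderm, with a fold enrichment of 4.06 and a −log10 q of 4.51. Next came a region of 13554 bp over the start of Foxb1 (fold 4.03), one of 13141 bp reaching from within Foxd1 past its end (fold 4.12) and one of 10520 bp upstream of Foxa1 (fold 4.15). The widest aged region, at chr9:98957244-98960505 over the end of Foxl2, measured 3262 bp (fold 3.56, −log10 q 2.37). The enrichment of a broad region is an average over the region, and at the members it ran from 2.71 to 4.99 in the young list and from 2.90 to 4.79 in the aged list.

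The members were split by their known sites of expression, with earlier results of these data known, into 29 tissue-restricted and 9 broadly expressed genes. All of the H3K27me3 lay with the tissue-restricted genes: 23 of 29 had covered bases in the young list within the gene and 1 kb on either side, against 0 of the 9 broadly expressed genes, and 18 of 29 against 0 of 9 in the aged list. Over all genes the shares were 22.8% and 13.6%, so that in as few as 9 genes a count of 0 is not far from the background. The median gene length was 57513 bp in the broadly expressed and 3759 bp in the tissue-restricted members, and its part in these counts was not tested. The following paragraphs take the groups in turn and give the bases covered in this window.

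**Figure D2:**
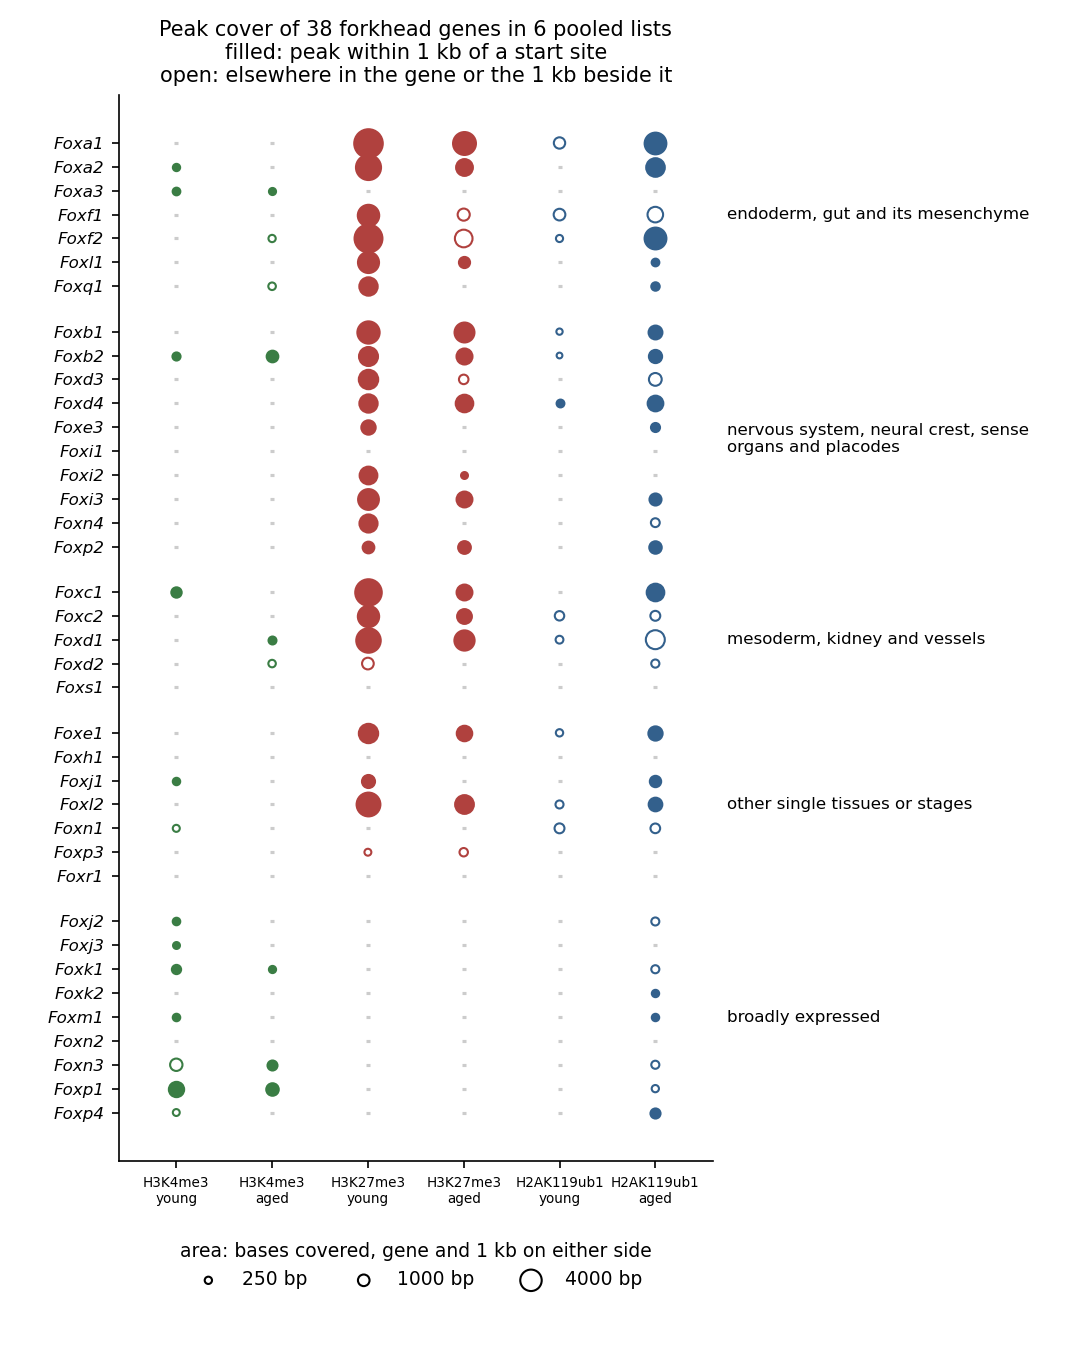
The 38 members (rows, grouped by site of expression) in the 6 pooled lists (columns). The area of a circle stands for the bases covered within the gene and 1 kb on either side, filled circles mark a peak within 1 kb of a start site, open circles a peak elsewhere in that window, and dashes no covered base. The H3K27me3 columns are empty for the 9 broadly expressed genes at the bottom, while 7 of those 9 have a circle in the aged H2AK119ub1 column.

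Among the 7 genes of endoderm, gut and gut mesenchyme, 6 carried H3K27me3 in the young list. Foxa1, which like Foxa2 opens chromatin in the forming gut and its glands, had 7265 bp covered when young and 4597 bp when aged. Foxa2 had 5554 bp and 2361 bp. Both were covered at each age, and both were covered over fewer bases in the aged list. Foxf1 and Foxf2, factors of the mesenchyme around the gut and lung, had 3990 bp and 6926 bp of young H3K27me3, against 1111 bp and 2624 bp of aged H3K27me3. Foxl1, of the intestinal mesenchyme, had 3848 bp and 904 bp, and Foxq1, known from stomach and hair, 2869 bp and 0 bp. Foxa3, the liver member of the Foxa class, stood apart from its relatives: it had no H3K27me3 at either age and was the only gene of the group with H3K4me3 at the promoter in both lists.

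The 10 genes of the nervous system, neural crest, sense organs and placodes had 9 members with H3K27me3 in the young list and 7 in the aged list. Foxb1, a gene of the hypothalamus and hindbrain, had 4331 bp young and 3420 bp aged, and Foxd4 2843 bp and 2606 bp, so that both had most of the young length in the aged list as well. Foxd3, a factor of the neural crest, had 3229 bp and 595 bp, Foxi2 2661 bp and 200 bp and Foxi3, needed for ear and tooth, 3747 bp and 2082 bp. Foxe3, the lens member, and Foxn4, of retina and spinal cord, had 1655 bp and 2777 bp of young H3K27me3 and 0 bp of aged H3K27me3. Foxp2, a brain gene of 540629 bp, had 1021 bp of young and 1256 bp of aged H3K27me3, all of it a small part of its length. Foxi1, of the inner ear and kidney, was listed with no peak of any mark at either age.

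In the group of mesoderm, kidney and vessels, 4 of 5 genes had H3K27me3 in the young list and 3 in the aged list. Foxc1 and Foxc2, which act together in vessels, somites and eye, had 6239 bp and 3946 bp when young, against 2079 bp and 1779 bp when aged. Foxd1, a gene of the kidney stroma, had 5279 bp and 3525 bp. Foxd2 had 1019 bp in the young list, none of it within 1 kb of the start site, and 0 bp in the aged list. Foxs1 had no peak in its window, although 9009 bp of young H3K27me3 lay within 20 kb of its start. Of the 7 genes of other single tissues or stages, Foxl2, the ovary factor, had 4982 bp and 2997 bp, Foxe1, of the thyroid, 3207 bp and 1974 bp, and Foxj1, which drives the formation of motile cilia, 1333 bp and 0 bp. Foxp3, the factor of regulatory T cells and thus a gene of a blood lineage, had 200 bp when young and 415 bp when aged, in both cases away from the promoter. Foxn1, of the thymic epithelium, Foxh1 and Foxr1 had none.

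Summed over the 38 genes, young H3K27me3 covered 82006 bp and aged H3K27me3 36643 bp, an aged-to-young ratio of 0.447, while over all protein-coding genes the ratio was 0.248. The young cover was the longer at 21 members and the aged cover at 2, Foxp2 and Foxp3, and 15 members had none at either age. At Foxp2 and Foxp3 no young region overlapped an aged one. Their aged regions were weak, with a −log10 q of 1.39 and 1.52 at Foxp2 and 1.24 at Foxp3. Over all genes the young cover was the longer at 4870 and the aged cover at 226. Most of what remained in the aged list lay inside the young domains. Of the aged bases at the members 92.6% were also covered in the young list, compared with 69.9% over all genes. The reverse share was 41.4% at the members and 17.5% over all genes. Such shares depend on how much of the window the other list fills, up to 94.8% for young H3K27me3 at Foxl2. The part of this filling was not tested. These sums move with the length of the lists, 41.0 Mb of young and 10.0 Mb of aged H3K27me3 in all, and whether age or the difference between the lists sets them cannot be told apart.

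**Figure D3:**
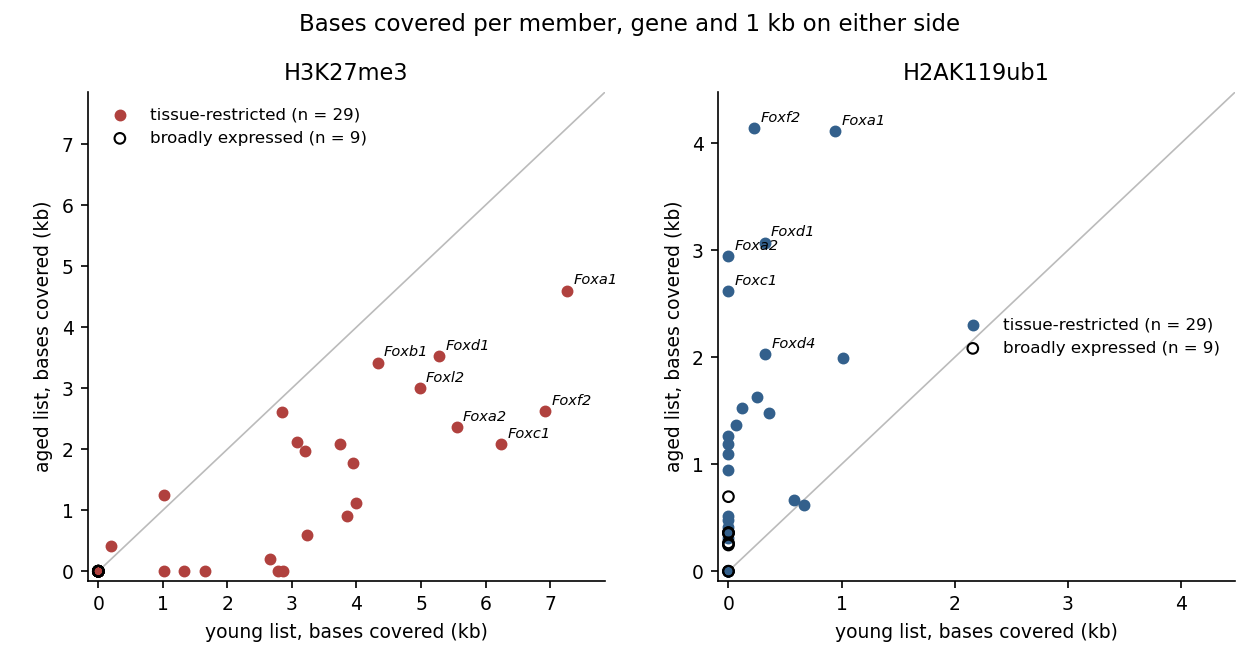
Bases covered within the gene and 1 kb on either side in the young list (horizontal axis, kb) and the aged list (vertical axis, kb), for H3K27me3 (left) and H2AK119ub1 (right), with 1 point per member and the diagonal in grey. For H3K27me3, 21 members lie below the diagonal and 2 above it. For H2AK119ub1, 28 lie above it and 1, Foxn1, below, a split near that over all genes.

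The 7 members that carried promoter H3K27me3 in the young list alone were Foxd3, Foxe3, Foxf1, Foxf2, Foxj1, Foxn4 and Foxq1, which is 18.4% of the members, beside 8.22% of all genes. In most of them the mark was not gone from the surroundings. The nearest aged region began 1042 bp from the first start site of Foxd3, 1170 bp from that of Foxf2, 1212 bp from that of Foxj1, 1577 bp from that of Foxn4 and 1701 bp from that of Foxf1, just beyond the 1 kb window. For Foxq1 the distance was 6599 bp and for Foxe3 22777 bp. With a window of 3 kb, 19 members were marked in the aged list (all genes 11.5%) and 23 in the young list (all genes 19.9%). Those marked in the young list only were then Foxd2, Foxe3, Foxq1 and Foxs1. No member had promoter H3K27me3 in the aged list alone.

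Around the start site the domains were not even. Averaged over the 29 tissue-restricted members, young H3K27me3 covered 64.0% of the bases in the 500 bp that begin 2 kb upstream of the first start site and 58.4% of those that begin 2 kb downstream, but 33.8% of those that begin 500 bp downstream. Aged H3K27me3 had the same shape, with 31.9% in the bin that begins 1500 bp upstream, 7.32% in the bin that begins 500 bp downstream and 33.0% in the bin that begins 2500 bp downstream. Aged H2AK119ub1 covered 30.6%, 7.75% and 35.5% at the same 3 places. Over all protein-coding genes, young H3K27me3 covered 6.53% of the bases in the 500 bp from the start site and 8.36% in the next 500 bp, and aged H2AK119ub1 covered 2.26% and 4.00%.

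**Figure D4:**
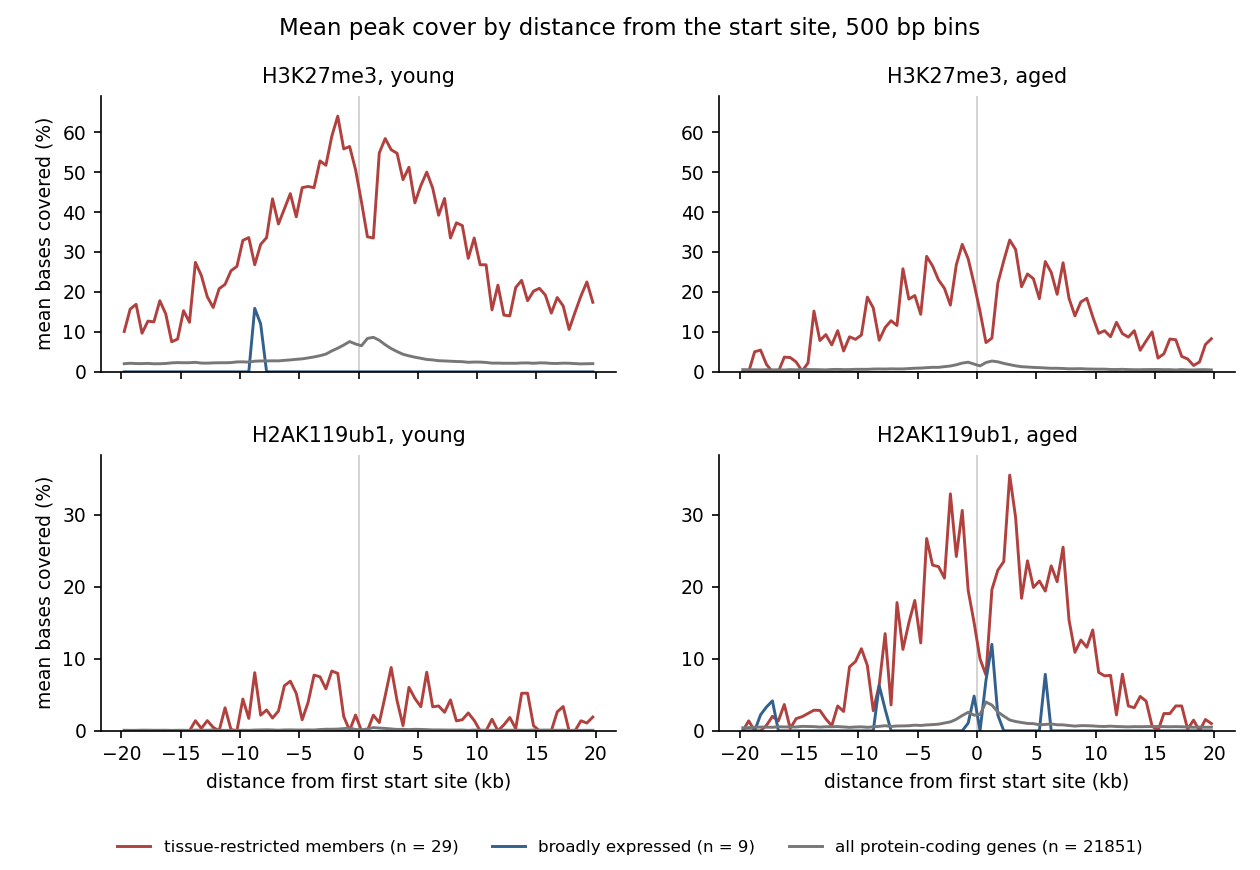
Mean percentage of bases covered (vertical axis) in bins of 500 bp by distance from the first start site (horizontal axis, kb, downstream to the right), for 29 tissue-restricted members (red), 9 broadly expressed members (blue) and all 21851 protein-coding genes (grey). The red lines for H3K27me3 at both ages and for aged H2AK119ub1 fall just downstream of the start site and rise again on both sides.

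The dip was followed to single genes, a step taken after the profile had been seen. Between neighbouring young H3K27me3 regions no more than 2 kb apart, 31 gaps lay within 20 members and 1 kb on either side of them, with a median width of 452 bp, and 22 of the 31 lay within 1 kb of a start site. The gaps were dense in CpG, with a median of 8.67 per 100 bp, compared with 6.93 in up to 500 bp of covered DNA on either side. The gap was the denser in 22 of the 31, or 71.0%, whereas among 15772 such gaps over all protein-coding genes 52.6% were denser than their flanks, with a median of 1.00 CpG per 100 bp. The gaps over all genes were not matched to those of the members in CpG density or in distance from a start site. Neighbouring gaps share a flank and gaps of a gene are not independent. Coding sequence made up 62.7% of the gap bases, and 13 of the 31 gaps were coding throughout.

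Single gaps show the contrast. The longest, 1785 bp at chr13:98354554-98356338, began 312 bp inside Foxd1 and held 13.1 CpGs per 100 bp, against 4.50 in its flanks. At Foxd3 a gap of 1095 bp inside the coding exon held 12.8 per 100 bp against 9.80, and at Foxa1 a gap of 631 bp over the start site held 13.6 against 5.30. At Foxc1 the gap of 393 bp held 15.3 against 8.11. The contrary was found at Foxc2, where a coding gap of 519 bp held 8.67 against 13.6 in its flanks. Aged H2AK119ub1 covered some base of 11 of the 31 gaps (35.5%, all genes 8.96%) and filled the whole of 3: the coding gap of 393 bp at Foxa1, the gap of 326 bp over the start site of Foxf2 and the gap of 284 bp at Foxn4. In all it covered 18.5% of the gap bases and 23.1% of the flanking bases, whereas aged H3K27me3 covered 5.74% and 25.1%. Over all genes the shares were 2.62% and 5.95% for aged H2AK119ub1 and 4.99% and 11.1% for aged H3K27me3. Gaps were defined by the absence of young H3K27me3, and the part of this definition in the aged shares was not tested. In these shares too the gaps over all genes were not matched in CpG density or position. No H3K4me3 peak of either age touched a gap of a member. Over all genes 218 of the 15772 gaps held young and 117 held aged H3K4me3, so that none among 31 is near the background. Micrococcal nuclease, amplification and alignment can each depend on base composition, and their part in the gaps was not tested.

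**Figure D5:**
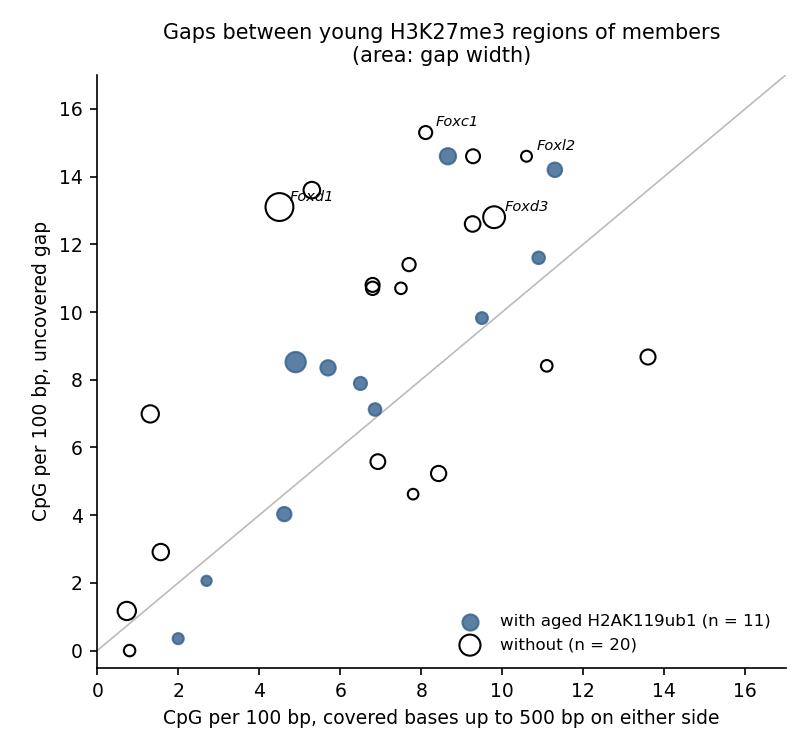
CpG per 100 bp in the 31 gaps between young H3K27me3 regions of the members (vertical axis) against CpG per 100 bp in up to 500 bp of covered bases on either side (horizontal axis). The area of a circle stands for the width of the gap, filled circles are the 11 gaps with aged H2AK119ub1, and the diagonal marks equal density. Above the diagonal lie 22 gaps, and 9 lie below.

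H2AK119ub1 differed most between the ages in number of members. In the young list 1 member, Foxd4, carried it at the promoter (all genes 1.91%), and in the aged list 18 did (all genes 14.0%). Foxd4 was thus the one member marked at both ages (all genes 1.50%), and 17 members, or 44.7%, were marked in the aged list only, beside 12.5% of all genes. With the gene body included, the counts were 7 young (all genes 4.58%) and 29 aged (all genes 23.7%). The young list is short, and with the aged list cut to the same 2593 regions 8 members were marked at the promoter, beside 2.92% of all genes. They were Foxa1, Foxa2, Foxb1, Foxc1, Foxd4, Foxj1, Foxl1 and Foxq1.

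The young count depended on the window. Within 3 kb of a start site 13 members had young H2AK119ub1, against 3.75% of all genes, and 25 had aged H2AK119ub1, against 19.3%. At 12 of the 13 the young regions thus lay beside the promoter and not on it. The nearest was found 1068 bp from the first start site of Foxa1, 1296 bp from that of Foxf2, 1428 bp from that of Foxd1, 1858 bp from that of Foxi3 and 2037 bp from that of Foxp2. At Foxe1, Foxf1, Foxb2, Foxl2, Foxc1, Foxc2 and Foxn4 the distance lay between 2377 bp and 2907 bp. The exception, at chr19:24901380-24901704, lay 183 bp upstream of Foxd4, with a width of 325 bp, a fold enrichment of 2.96 and a −log10 q of 1.58. The 13 members were all among the 21 with young promoter H3K27me3. Over all genes 3.29% had both marks within 3 kb in the young list, beside the 3.75% with H2AK119ub1, so most such genes carried both.

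In bases, young H2AK119ub1 covered 4886 bp of the members and aged H2AK119ub1 37332 bp, a ratio of 7.64 beside 8.49 over all genes. Within 20 kb of the first start site the ratio was 4.56, beside 7.05 over all genes. The aged cover was the longer at 28 members and the young cover at 1, Foxn1, with 665 bp and 620 bp in regions that did not overlap. Over all genes the aged cover was the longer at 5245 and the young cover at 186, so the split at the members was near the background. The greatest aged cover was found at Foxf2, with 4146 bp (young 230 bp), Foxa1, with 4117 bp (young 945 bp), Foxd1, with 3074 bp (young 321 bp), Foxa2, with 2947 bp (young 0 bp), and Foxc1, with 2617 bp (young 0 bp). These 5 were also the 5 members with the longest young H3K27me3 in the same window. Bases covered are bounded by the length of the window, and by share of it the match was partial. Young H3K27me3 covered the highest shares at Foxl2 (94.8%), Foxf2, Foxa2, Foxb2 and Foxa1. Aged H2AK119ub1 did so at Foxf2 (54.6%), Foxd4, Foxa1, Foxa2 and Foxd1. The widest aged region measured 2967 bp, at chr13:98356651-98359617, and lay over the end of Foxd1 with a fold enrichment of 3.95 and a −log10 q of 3.45.

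Much of the aged H2AK119ub1 lay where H3K27me3 had been listed in young HSCs. Of the aged bases at the members, 77.9% fell inside young H3K27me3 regions, compared with 47.9% over all genes, and 46.6% inside aged H3K27me3 regions, compared with 23.7%. Such shares depend on how much of the window H3K27me3 fills, and its part was not tested. Young H3K27me3 filled between 74.7% and 91.3% of the window at Foxf2, Foxa1, Foxd1, Foxa2 and Foxc1, which had the most aged H2AK119ub1. At promoters, 15 of the 21 members with young H3K27me3 (71.4%) had aged H2AK119ub1, compared with 49.1% of all genes with young H3K27me3. Both Polycomb marks met at 1 promoter in the young list, Foxd4 (all genes 1.65%), and at 11 in the aged list (all genes 4.99%): Foxa1, Foxa2, Foxb1, Foxb2, Foxc1, Foxd4, Foxe1, Foxi3, Foxl1, Foxl2 and Foxp2. At Foxe3, Foxf2, Foxj1 and Foxq1 the aged promoter carried H2AK119ub1 while H3K27me3 was listed in the young HSCs only. At Foxc2 and Foxi2 the aged promoter carried H3K27me3 alone, and at Foxd3, Foxf1 and Foxn4 no mark.

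Aged H2AK119ub1 also reached genes without H3K27me3. Of the 9 broadly expressed members, 7 had it somewhere in the gene or promoter in the aged list (all genes 23.7%) and none in the young list. The median gene length was 57513 bp in the 9 and 17380 bp over all genes, and its part in this count was not tested. With equal list lengths none of the 9 was marked in gene or promoter (all genes 5.61%). The cover was short, with a median of 265 bp and at most 697 bp, at Foxp4. In the 7 genes it made up between 0.0409% (Foxp1) and 1.75% (Foxm1) of the gene and 1 kb on either side. At the promoter it was found in 3: Foxk2, a forkhead factor of metabolism and autophagy, Foxm1, which drives the genes of cell division, and Foxp4. These were also the 3 members with promoter H2AK119ub1 and no promoter H3K27me3 at either age, 7.89% of the members beside 6.04% of all genes, which is near the background. The region at Foxm1 is shared with Rhno1, which starts 99 bp away on the opposite strand, so it cannot be assigned to either gene.

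H3K4me3 was listed at the members at shares near or below those of all genes. In young HSCs 10 of 38 promoters (26.3%) carried it, beside 33.8% of all genes, in aged HSCs 6 (15.8%), beside 23.3%, and at both ages 4, beside 17.5%. With the gene body included 13 members (34.2%, all genes 36.5%) and 9 (23.7%, all genes 25.5%) were marked, close to the background. The order of the ages was not stable. With 6723 peaks in each list, 3 members were marked in the young list (all genes 23.4%) and 6 in the aged list (all genes 23.3%). In the young list the median −log10 q of the member peaks was 3.89, against 4.65 for the list, and in the aged list 4.53, against 4.16. Of the 20 young peaks 3 overlapped an aged peak. In the other direction, within the genes and 1 kb on either side, 4 of 14 aged regions (28.6%) overlapped a young one, beside 53.5% over all genes.

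The 4 members with promoter H3K4me3 at both ages were Foxa3, Foxb2, Foxk1 and Foxp1. At Foxa3 the young peak, chr7:19023021-19023324, had 18 reads at its summit (fold 4.04, −log10 q 4.22), and the aged peak, chr7:19023347-19023568, lay beside it without overlap, with 17 reads (fold 3.13, −log10 q 2.36). The start of Sympk lies 839 bp from that of Foxa3 on the opposite strand, and the aged peak fell within 1 kb of both. At Foxk1, a partner of Foxk2, peaks of 200 bp (fold 3.83) and 234 bp (fold 3.98) lay 820 bp and 572 bp inside the gene, again without overlap. Foxp1, which is expressed through much of the blood system, held the most H3K4me3 of any member, 1916 bp young and 1202 bp aged over a gene of 597384 bp. Its young promoter peaks, at chr6:99027966-99028194 and chr6:99265850-99266349, each had a fold of 4.25 and 19 reads, and its aged promoter peak, chr6:99521789-99522061, was the weakest of the aged member peaks, with a fold of 2.78, 15 reads and a −log10 q of 1.54. The young and aged promoter peaks of Foxp1 thus lay at different start sites. A young peak near the aged one, chr6:99522094-99522361, lay 1097 bp from a start site, just outside the promoter window.

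Of the broadly expressed members, 5 of 9 had promoter H3K4me3 in the young list (Foxj2, Foxj3, Foxk1, Foxm1 and Foxp1) and 3 in the aged list (Foxk1, Foxn3 and Foxp1). The peak at Foxm1, 278 bp with 17 reads, is shared with Rhno1, and the peak at Foxj3, 200 bp with 18 reads, with Frg2f1. Foxn3 was listed as marked at the promoter in the aged HSCs only, through a peak at chr12:99393233-99393558 with a fold of 4.64. In both lists, however, the gene also had peaks at least 110875 bp away near its annotated 5′ end, with young folds of 3.83, 5.04 and 4.87 and an aged fold of 4.38, where the annotation used has no protein-coding start. Its status by age therefore depends on the start sites chosen. Foxn2 had no peak of any mark.

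The strongest member peak of the young list, at chr11:116335532-116335798 upstream of Foxj1, had 27 reads at its summit, a fold enrichment of 5.95 and a −log10 q of 9.65, and no aged peak overlapped it. Foxj1 was also 1 of 4 members with H3K4me3 and H3K27me3 together at the young promoter, beside Foxa2, Foxb2 and Foxc1 (all genes 2.96%). At Foxa2 the peak had 17 reads (fold 3.63) and at Foxc1 16 reads (fold 3.43). In the aged list Foxb2 and Foxd1 carried both marks (all genes 0.792%). The aged peak at Foxd1, chr13:98354107-98354448, covered the start site with 22 reads and a fold of 5.08, the highest among the aged member peaks, and no young peak was listed there. With equal list lengths 1 young member, Foxj1 (all genes 1.21%), and 2 aged members, Foxb2 and Foxd1 (all genes 0.792%), carried both marks.

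Foxb2, a gene of the brain that consists of 1 short transcription unit of 1487 bp, was the one member with all 3 marks at the promoter, in the aged list. Its young H3K4me3 peak, chr19:16874441-16875000, had 19 reads and the lowest fold of the young member peaks, 2.88, and the aged peak, chr19:16873873-16874543, had 21 reads and a fold of 4.86. The aged peak was the closer to the start site, at 68 bp against 636 bp. Young H3K27me3 covered 3085 bp and aged H3K27me3 2118 bp, and H2AK119ub1 66 bp and 1366 bp. Aged H3K4me3 covered 1010 bp of the gene and 1 kb on either side, more than this peak of 671 bp, so a further aged region lay beside the gene. The start of the noncoding RNA gene AC128703.1 lies 2713 bp away on the opposite strand. It had 0 young and 1 aged H3K4me3 peaks, so the young peak of Foxb2 did not reach it. Whether the marks lay on the same chromosomes or in different cells cannot be read from these lists.

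Several members lie together on the chromosome and are not independent. Foxq1, Foxf2 and Foxc1 lie within 256 kb of chromosome 13, where young H3K27me3 covered 16.9% of the bases, aged H3K27me3 7.07%, young H2AK119ub1 1.80% and aged H2AK119ub1 8.51%. Foxf1, Foxc2 and Foxl1 lie within 46.3 kb of chromosome 8, where the 4 shares were 51.7%, 18.8%, 5.33% and 16.4%. In both clusters the young H3K27me3 and the aged H2AK119ub1 were the longer of their pair. Foxd2 and Foxe3 lie within 19.7 kb of chromosome 4, with 7.52%, 0%, 0% and 6.13%. Noncoding RNA genes also start within reach of member promoters: 1700018A04Rik 24 bp from Foxf2, Foxl2os 11 bp from Foxl2, Foxd2os 384 bp from Foxd2 and Fendrr, known from lung and heart development, 1276 bp from Foxf1. The promoter regions at Foxf2 and Foxl2 lay within 1 kb of both starts and cannot be assigned to either gene. No region was listed within 1 kb of the Foxd2os start. Fendrr had 1 young H3K27me3 region there, apart from that at the Foxf1 promoter.

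Promoters of the members were rich in CpG, which the rule for the members did not use. The ratio of observed to expected CpG in the 1 kb on either side of the first start site had a median of 0.760, against 0.484 over all genes. It was 0.778 for the 21 members with young H3K27me3 and 0.789 for the 9 broadly expressed members, which had none. Among genes with a ratio of at least 0.6, 18 of 28 members had young H3K27me3 at the promoter, or 64.3%, against 17.4% of all such genes. Foxq1, at 0.250, Foxi2, at 0.414, and Foxn4, at 0.548, carried young H3K27me3 below that ratio.

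No peak of any list was found at 8 promoters, those of Foxd2, Foxh1, Foxi1, Foxn1, Foxn2, Foxp3, Foxr1 and Foxs1, which is 21.1% of the members and 45.0% of all genes. With the gene body included 5 remained, Foxh1, Foxi1, Foxn2, Foxr1 and Foxs1, or 13.2% against 37.1%. The 8 had a median CpG ratio of 0.306, but the range reached 0.875, at Foxn2, one of the broadly expressed genes. Foxh1, which acts with SMAD proteins in the early embryo, had a ratio of 0.310 and Foxi1 one of 0.254.

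Other families were set beside the members. The 4 FOXO genes, the class left out of the list and known for keeping HSCs quiescent, had promoter H3K4me3 in 3 (Foxo1, Foxo3 and Foxo4) in the young list and in 2 in the aged list, and promoter H3K27me3 in 1, Foxo6, in the young list. The T-box genes, another family of developmental factors, had promoter H3K27me3 in 13 of 17 at both ages, and the LIM homeobox genes in 12 of 12. Within the window of the gene and 1 kb on either side, aged-to-young ratios of H3K27me3 cover were 0.523 for the T-box genes and 0.428 for the LIM homeobox genes, beside 0.447 for the forkhead members. Within 20 kb of the first start site they were 0.521, 0.488 and 0.420 in the same order. The ratios of H2AK119ub1 cover were 3.75, 4.24 and 7.64 in the narrower window but 4.28, 4.18 and 4.56 within 20 kb, so that the distance between the families there was small. Of the FOXO genes Foxo1 and Foxo6 carried aged H2AK119ub1. No difference between the families was tested.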

How the data were processed

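ChIP-seq peak lists of young and aged HSCs were used as the authors deposited them. Per the labels, chromatin was fragmented with micrococcal nuclease and sonication, and Bowtie2, MACS2 2.2.6 and build mm10 are among the authors' processing notes. The deposited lists give a score, the fold enrichment as a linear ratio and the −log10 of p and q for each peak. Names of H3K4me3 peaks hold 2 library numbers but those of broad regions only 1, so whether both libraries entered the broad lists is uncertain.

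Overlaps of 1 bp or more with windows around 41438 protein-coding start sites of the basic GENCODE M21 set were found for the peaks of chromosomes 1 to 19, X and Y. Python 3.11.15 was used, with scipy 1.17.1, pandas 2.3.3, numpy 2.4.6 and pysam 0.24.0. Figures were drawn with matplotlib 3.10.9. No peak reached past a chromosome end of the genome used, and 83 of 83 RefSeq promoters compared were equal to it (assembly GRCm38.p6, the sequence of mm10). Reads at H3K4me3 summits were solved from the fold and the p-value, and all came out whole within 0.01. They cover counting over pooled libraries only. The overlap and read scripts were tested on simulated data. Positions are given for members marked with H3K4me3 at both ages, with young H2AK119ub1, with H3K4me3 and H3K27me3 together, and for the widest regions. Alternatives were a stricter q, lists of equal length, a longer overlap, other windows and another start-site set. Members, groups and lists were chosen with earlier results of these data known. The result of a further list of marker genes, of another blood lineage, is not reported here.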

Additional observations from a re-analysis of the deposited data

How the results depend on the processing

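No paired analysis was possible because the lists are pooled over libraries and hold no value per replicate. Of 72 recounts under the alternatives, 50 were within 1.5 times the count reported and 22 were not. The cause was not tested. A stricter cut kept −log10 q of at least 4 for H3K4me3 and 2 for the broad marks. Promoter counts were then 4 young (all genes 24.8%) and 3 aged (15.7%) for H3K4me3. They were 9 aged (3.28%) for H3K27me3 and 0 young (0.677%) for H2AK119ub1. For H3K4me3 with H3K27me3 they were 1 young (1.49%) and 1 aged (0.165%). For H3K27me3 with H2AK119ub1 they were 0 young (0.577%) and 4 aged (1.43%). With the gene body the counts were 6 for young H3K4me3 (all genes 26.9%) and 11 for aged H3K27me3 (6.36%). For H2AK119ub1 they were 4 young (1.88%) and 18 aged (10.3%). With lists of equal length, promoter counts were 3 for young H3K4me3 (all genes 23.4%) and 8 for aged H2AK119ub1 (2.92%). They were 1 for young H3K4me3 with H3K27me3 (1.21%) and 6 for aged H3K27me3 with H2AK119ub1 (1.50%). With the gene body they were 5 for young H3K4me3 (25.5%) and 13 for aged H2AK119ub1 (5.61%). A 3 kb window gave 13 for young H2AK119ub1 (all genes 3.75%) and 13 for young H3K27me3 with H2AK119ub1 (3.29%). The same pair gave 18 in the aged list (7.47%). A 500 bp window gave 2 for young H3K4me3 with H3K27me3 (1.97%). An overlap of 200 bp moved no count past 1.5 times, nor did the comprehensive start-site set, an alternative chosen after seeing the data. The share of members stood above that of all genes in 42 of 44 recounts of H3K27me3, H2AK119ub1 or both, the other 2 being those with a count of 0, and in 0 of 16 of H3K4me3.

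Depth limits what a missing peak means: the lowest fold listed at a member was 2.71, and single-library values were not analysed here.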
